A study of Mus musculus with 12 samples.

Results

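The 10 heat shock chaperone genes studied here were followed in whole mouse embryos from normal and diabetic pregnancies, to see whether the low level of Hspa1a in embryos of diabetic dams extended to other inducible or constitutive chaperones. The genes were Hspa1a, Hspa1b, Hspa8, Hsph1, Dnajb1, Hsp90aa1, Hsp90ab1, Hspb1, Hspd1 and Hspe1. The microarray carried 18 probes annotated to them, and a probe was used if its detection p-value was under 0.05 on at least 2 of the 12 arrays. That left 12 probes of 8 genes, out of 14677 probes and 7659 genes that passed in the whole data set. The low Hspa1a signal in the diabetic pools is what chose this set of genes, so it is described below with no test. Hspa1a passed with detection on 8 arrays, and the other 11 passing probes were detected on all 12. The 6 probes that did not pass were 2 of Hspa1a, 2 of Hspa1b, 1 of Hsp90aa1 and 1 of Hspb1. Just outside the rule, detected on 1 array each, stood both Hspa1b probes, 1 of those of Hspa1a and that of Hsp90aa1. Hspa1b thus had no passing probe, and Hsp90ab1, which had no annotated probe, was not analysed here.

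All embryos were of the NOD strain, which develops autoimmune diabetes, and were taken whole at embryonic day 10.5. Each of 4 control pools combined RNA of 4 embryos from normal pregnancies, and each of 4 diabetic pools combined RNA of 4 embryos from diabetic pregnancies, with the embryos of a pool coming from 4 separate pregnancies. The 4 remaining samples were single embryos with a neural tube defect (NTD) from diabetic pregnancies, so that pooling and the defect cannot be told apart. Dams with more than 250 mg/dL blood glucose counted as diabetic and were given 5 units of gonadotropin from pregnant mare's serum before mating. It is not stated in the labels if the controls' dams were also injected, whether pools shared litters, or whether diabetic pools held embryos with a defect. The p-values therefore measure the spread between these samples only.

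Heat shock proteins are molecular chaperones that keep other proteins folded. HSP70 proteins (Hspa genes) hold exposed hydrophobic stretches in cycles of ATP hydrolysis, HSP40 proteins (Dnaj genes) deliver clients and stimulate that hydrolysis, and HSP110 proteins such as Hsph1 release the nucleotide. HSP90 completes the folding of kinases and steroid receptors, small heat shock proteins hold unfolded clients without ATP, and HSP60 with its lid HSP10 (Hspd1 and Hspe1) encloses proteins imported into mitochondria. Heat shock factor HSF1 induces many of these genes by binding heat shock elements, inverted repeats of the unit GAA. Hspa8 and Hsp90ab1 are the constitutive forms found in nearly all cells, whereas Hspa1a and Hspa1b are the classic stress-inducible HSP70 genes.

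The sequences upstream of the inducible genes are shown because they hold these inverted repeats. In RefSeq's annotation of GRCm38.p6, Hspa1a lies at chr17:34969359-34972156 and its near-identical copy Hspa1b at chr17:34956429-34959238, both on the minus strand. The 250 bases before the start site are given 5′ to 3′ for both (chr17:34972157-34972406 and chr17:34959239-34959488), for Hspe1 (chr1:55087898-55088147, plus strand) and for Hspb1 (chr5:135887669-135887918, plus strand). Capitals mark matches to GAANNTTC or TTCNNGAA, searched on both strands, each of which is its own reverse complement.
Hspa1a: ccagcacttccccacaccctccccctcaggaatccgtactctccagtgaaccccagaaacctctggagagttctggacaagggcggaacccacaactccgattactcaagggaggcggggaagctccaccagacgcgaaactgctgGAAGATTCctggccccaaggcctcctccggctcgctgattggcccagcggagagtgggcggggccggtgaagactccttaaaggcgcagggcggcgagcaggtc
Hspa1b: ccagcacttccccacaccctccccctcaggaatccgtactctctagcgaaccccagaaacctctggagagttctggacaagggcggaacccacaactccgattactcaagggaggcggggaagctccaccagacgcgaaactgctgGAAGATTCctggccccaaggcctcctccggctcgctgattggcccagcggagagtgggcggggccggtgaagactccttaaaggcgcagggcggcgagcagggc
Hspe1: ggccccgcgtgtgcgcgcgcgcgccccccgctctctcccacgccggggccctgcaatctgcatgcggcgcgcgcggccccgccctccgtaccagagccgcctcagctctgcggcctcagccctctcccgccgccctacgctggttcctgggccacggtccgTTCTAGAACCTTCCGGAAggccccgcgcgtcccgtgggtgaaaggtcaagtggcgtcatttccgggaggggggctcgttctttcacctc
Hspb1: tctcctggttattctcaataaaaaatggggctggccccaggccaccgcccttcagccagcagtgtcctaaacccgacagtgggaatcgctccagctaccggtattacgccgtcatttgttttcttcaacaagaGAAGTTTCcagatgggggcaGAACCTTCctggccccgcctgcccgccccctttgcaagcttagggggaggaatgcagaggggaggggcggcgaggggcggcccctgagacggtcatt
The Hspa1a and Hspa1b windows differed at 3 of 250 positions and held the same match, which began 104 bases before the start site. Hspe1 and Hspd1, the HSP10 and HSP60 genes, face away from each other, and 215 bases of the Hspe1 window are also part of an Hspd1 window on the opposite strand (chr1:55087933-55088182). A second Hspd1 window in the table (chr1:55088244-55088493), for another start site, shared 0 bases with it and held no match. In that shared stretch the matches overlapped into a longer run that held both 13-base motifs, GAANNTTC followed by NNGAA and TTCNNGAA followed by NNTTC. Hspb1 held separate matches beginning 117 and 97 bases before its start site, and Hsph1 held a match to TTCNNGAA. No match lay in the Dnajb1 windows. The 7 members with a window had 10 windows, of which 7 held an 8-base motif and 2 a 13-base motif, and 12.8% and 0.466% of the 32851 windows of all genes did. The member windows are not separate, so these counts take some bases more than once. Both Hsph1 windows overlap and hold the same match, and both windows with a 13-base motif hold the stretch that Hspe1 and Hspd1 share. Hspa8, Hsp90aa1 and Hsp90ab1 had no window in the table used. A match describes letters in these windows only.

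On each array 12546 to 13736 of 32766 probes were detected (38.3% to 41.9%), and the correlation of log2 levels between arrays of a group was 0.995 to 0.997 for control pools, 0.991 to 0.996 for diabetic pools and 0.982 to 0.992 for NTD embryos. Of 18 genes fixed as markers of whole-embryo tissues, 12 had a probe and 11 passed, including Myl7 of the heart and the embryonic globin gene Hbb-y, and Myf5 of the somites was detected on 0 arrays. Of these, Neurog2 of the neural tube was lower in diabetic than in control pools by 1 of its 2 probes (-0.44, limma adjusted p = 0.0238, with the other at -0.21) and Meox1 of the somites was higher (0.37, limma adjusted p = 0.0453). Of 13 markers of placenta, decidua and yolk sac, 6 had a probe: Hand1, Dcn and Des, which embryonic tissue also expresses, were detected on 12 arrays, Amn on 2, and Bmp2 and Apoa4 on 0. Samples differed in male tissue: the log2 level of Kdm5d, a Y-linked gene, was 4.60 and 4.42 in control pools 3 and 4 and 4.59 and 4.48 in NTD embryos 3 and 4, against 7.23 to 9.18 in the other 8 samples. In bulk RNA, fewer cells of a type and less RNA per cell cannot be told apart.

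Hspa1a encodes the inducible cytosolic HSP70. The deposited signal intensity of its passing probe (ILMN_2829594) was 126, 150, 140 and 132 in control pools 1 to 4. It was 70.3, 69.6, 67.0 and 60.6 in diabetic pools 1 to 4, and 58.6, 85.3, 46.0 and 89.5 in NTD embryos 1 to 4. Every control pool lay above all 8 samples from diabetic pregnancies. The lowest intensity that counted as detected was between 64.0 and 71.2 depending on the array, and the probe was detected in 4 of 4 control pools, in diabetic pools 1 and 2, and in NTD embryos 2 and 4. The samples from diabetic pregnancies were thus at or near the limit of detection.

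**Figure D1:**
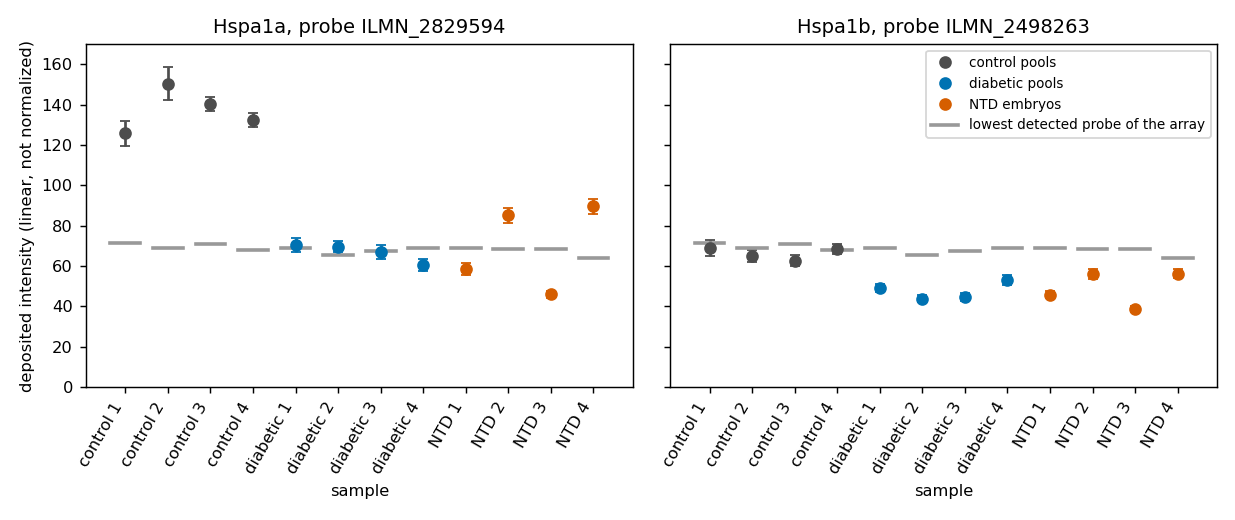
Deposited signal intensity (linear axis) of the passing Hspa1a probe and of 1 Hspa1b probe, 1 point per sample coloured by group, with bars for the standard error over beads and a grey line at the lowest intensity that counted as detected on that array. For Hspa1a the 4 control pools sit between 126 and 150 and the other 8 samples between 46.0 and 89.5.

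After background correction and quantile normalization, the Hspa1a level was 6.55 ± 0.17 on the log2 scale in control pools (SD, n = 4) and 5.06 ± 0.18 in diabetic pools (SD, n = 4). The difference of diabetic from control pools was -1.49 ± 0.11 (log2, SE), a 2.81-fold higher level in control pools. The size depended on how the background was treated: the log2 difference was -0.93 with no background correction, -0.92 with a larger offset and -2.26 in the authors' normalized value table. Without control pools 3 and 4, those with little Kdm5d, it was -1.52. Of 9 immediate early genes, which respond within minutes to handling and other stimuli, 3 were called higher in the same pools, where 1.45% of all probes were called in either direction. Ier3 rose by 0.86 (log2, limma adjusted p = 0.00296), Ier2 by 0.67 (adjusted p = 0.00743) and Egr1 by 0.76 (adjusted p = 0.00798). The other 6 did not pass, with Atf3 at 0.37, Junb at 0.30, Dusp1 at 0.19, Jun at 0.15, Fosb at 0.05 and Fos at -0.04. At an unadjusted p under 0.05 (limma), 6 of the 9 were higher, against 6.01% of all probes. In NTD embryos none of the 9 passed against control pools, where 0.0341% of all probes were called. Differences there were 0.79 for Ier3, 0.71 for Egr1, 0.46 for Ier2 and Junb and 0.45 for Atf3. Dusp1 stood at 0.13, Jun at 0.06, Fosb at 0.04 and Fos at -0.13. The summed level of the 9 was 2149 to 2674 in control pools and 2836 to 3341 in diabetic pools, with 1714 to 4838 in NTD embryos, and their part in the Hspa1a difference was not tested.

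In NTD embryos Hspa1a averaged 5.23 ± 0.73 on the log2 scale (SD, n = 4), with 4.81, 5.63, 4.44 and 6.03 in embryos 1 to 4. The spread among them exceeded that within the control pools (SD 0.17), and only 83 of 14677 probes (0.566%) varied more among the NTD embryos. Each control pool averages over 4 embryos, whereas these samples are single embryos. NTD embryos 1 and 3 were not detected, so their log2 values depend on how the background was treated. All 4 embryos lay below all 4 control pools, as 2.62% of all probes did. The difference from control pools was -1.32 ± 0.29 (log2, SE), and -1.59 without NTD embryo 4. Over 20 alternatives in processing or samples it ran from -2.77 to -0.80. The difference from diabetic pools was 0.17 ± 0.29 (log2, SE), and -0.10 without NTD embryo 4. Both comparisons use pools whose Hspa1a values chose the set, so these differences too are given with no test.

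Hspa1b encodes a protein nearly identical to that of Hspa1a, so that which copy a probe reports is uncertain. The intensity of its first probe (ILMN_2498263) was 69.0, 65.0, 62.7 and 68.3 in control pools 1 to 4, 49.0, 43.8, 44.6 and 53.3 in diabetic pools, and 45.8, 56.0, 38.7 and 56.2 in NTD embryos. Control pools were above all other samples, but only control pool 4 reached detection, so that no fold is given. After normalization control pool 3 (4.80, log2) and NTD embryo 4 (4.79) were nearly level. Its second probe (ILMN_2530672) read 57.4 to 73.8 in control pools and 54.8 to 60.4 in the other samples, with overlap. The 2 other Hspa1a probes were detected on 1 and 0 arrays, and for both the groups overlapped. The first (ILMN_1225328) read 56.9 to 73.2 in control pools, 48.7 to 61.3 in diabetic pools and 55.1 to 60.4 in NTD embryos. The second (ILMN_1245039) read 42.6 to 50.6, 43.2 to 47.5 and 44.4 to 49.7 in the same order.

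None of the 11 probes of the other 7 genes differed between diabetic and control pools (limma, Benjamini-Hochberg adjusted p of 0.272 or more), in a comparison in which 1.45% of all probes were called, 147 lower and 66 higher. With median scaling in place of quantile normalization that split was 244 lower and 36 higher. At an unadjusted p under 0.05 stood 2 of the 11, those of Dnajb1 and 1 of Hspd1, against 12.7% of all probes. All 11 differences were below 0, as were 48.1% of those of all probes, and their median was -0.15 on the log2 scale, against 0.0060 over all probes and -0.0027 over the 1155 probes with a mean log2 level of at least 11. The median of the 11 was -0.07 without diabetic pool 1 and -0.04 without diabetic pool 2. With any other sample left out it was -0.15 to -0.11. The 95% intervals of the 11 reached at most 1.36-fold lower and 1.22-fold higher. Between NTD embryos and control pools 0 of the 11 were called, with 0.0341% of all probes called, and 1 stood at an unadjusted p under 0.05, against 9.87% of all probes. There 9 of the 11 were below 0 (48.9% of all probes), with a median of -0.06. Between NTD embryos and diabetic pools 0 were called, as was 0% of all probes, and 1 stood at an unadjusted p under 0.05, against 2.93% of all probes. There 1 of the 11 was below 0 (51.2% of all probes), with a median of 0.05.

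**Figure D2:**
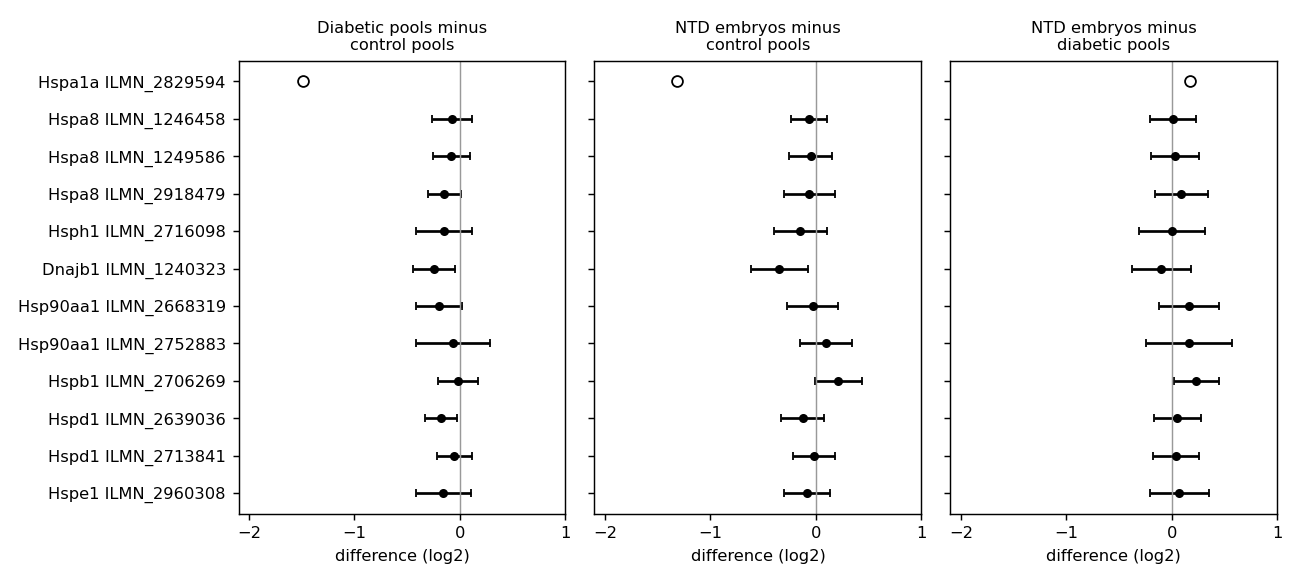
Log2 difference of each of the 12 passing probes in the 3 comparisons, points with 95% intervals from limma; the open points, with no interval, are Hspa1a, whose values chose the set. Hspa1a stands at -1.49 and -1.32 against control pools, and the other 11 probes lie between -0.35 and 0.21 there.

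Hspa8, the constitutive HSC70 that also uncoats clathrin vesicles, was among the brightest genes on the array. The log2 level of its brightest probe (ILMN_1249586) was 14.11, 14.17, 13.99 and 14.04 in control pools 1 to 4, 13.98, 13.86, 14.05 and 14.11 in diabetic pools, and 13.94, 14.17, 13.87 and 14.14 in NTD embryos. The groups overlapped, and diabetic pools differed from control pools by -0.08 ± 0.08 (log2, SE; limma adjusted p = 0.750). A second probe (ILMN_1246458) overlapped too, with a difference of -0.08 ± 0.09. The third (ILMN_2918479) read 12.58 to 12.72 in control pools and 12.42 to 12.57 in diabetic pools and did not overlap, as 4.43% of all probes did not in that direction, with a difference of -0.15 ± 0.07 (log2, SE; limma adjusted p = 0.416). The mean level of both brighter probes ranked above 99.3% of passing probes.

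Hsph1, the HSP110 protein that acts as nucleotide exchange factor of HSP70, had log2 levels of 11.66, 11.70, 11.71 and 11.45 in control pools 1 to 4. It had 11.44, 11.14, 11.73 and 11.61 in diabetic pools and 11.71, 11.48, 11.21 and 11.53 in NTD embryos. Diabetic pool 2 and NTD embryo 3 were lowest and the groups overlapped. The difference from control pools was -0.15 ± 0.12 for diabetic pools (log2, SE; limma adjusted p = 0.677) and -0.15 ± 0.11 for NTD embryos (limma adjusted p = 0.736).

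Dnajb1, the HSF1-induced HSP40 partner of HSP70, showed the lowest differences among the other members. Its log2 levels were 11.34, 11.55, 11.55 and 11.32 in control pools 1 to 4, 11.21, 10.998, 11.34 and 11.23 in diabetic pools, and 11.13, 11.11, 10.78 and 11.36 in NTD embryos. Diabetic pool 3 and NTD embryo 4 reached into the range of the control pools, and the other 6 samples lay below it. The difference from control pools was -0.25 ± 0.09 for diabetic pools (log2, SE; limma adjusted p = 0.272) and -0.35 ± 0.12 for NTD embryos (limma adjusted p = 0.379), neither past the threshold.

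Hsp90aa1, the stress-inducible HSP90, was measured by 2 probes. The brighter one (ILMN_2668319) read 12.25, 12.24, 12.13 and 12.03 (log2) in control pools 1 to 4, 11.89, 11.80, 11.92 and 12.25 in diabetic pools, and 12.11, 12.39, 11.88 and 12.14 in NTD embryos. Diabetic pools 1, 2 and 3 lay below every control pool, and diabetic pool 4 lay among them, so that the difference was -0.20 ± 0.10 (log2, SE; limma adjusted p = 0.456). The other probe (ILMN_2752883) read 9.76, 9.89, 10.12 and 10.67 in diabetic pools 1 to 4, the last above every control pool (10.03 to 10.26), with a difference of -0.07 ± 0.16. It read 10.37, 10.46, 9.97 and 10.30 in NTD embryos 1 to 4, where embryos 1, 2 and 4 were above every control pool and embryo 3 below. That difference from control pools was 0.10 ± 0.11 (log2, SE; limma adjusted p = 0.849). The deviations of both probes from the control mean differed by 0.41 in diabetic pool 4 and by 0.15 on average over the 12 arrays.

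Hspb1, the small heat shock protein HSP25 that holds unfolded clients and acts on actin, was the member whose NTD embryos stood above the other groups. Its log2 levels were 8.53, 8.61, 8.61 and 8.31 in control pools 1 to 4, 8.57, 8.50, 8.53 and 8.36 in diabetic pools, and 8.64, 8.68, 8.93 and 8.66 in NTD embryos. All 4 NTD embryos were above all 8 pools, by little except for embryo 3. In the deposited intensities, before normalization, they overlapped, with 378 to 498 in NTD embryos and 389 to 453 in control pools. The difference was 0.21 ± 0.10 from control pools (log2, SE; limma adjusted p = 0.522), where 3.18% of all probes were higher without overlap, and 0.23 ± 0.10 from diabetic pools (limma adjusted p = 0.997), where 1.17% were. With median scaling, which moved the median of all probes in NTD embryos to -0.10 against control pools, the first difference was 0.08. Heart markers were also higher in NTD embryos, Myl7 and Nppa by 0.37 to 0.39 (log2; neither passed), with a summed level of 4034 to 6705 against 3706 to 3926 in control pools, and their part in the Hspb1 values was not tested.

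Hspd1 and Hspe1 encode the mitochondrial HSP60 and HSP10 and lie head to head on the chromosome. For Hspd1, the dimmer probe (ILMN_2639036) read 11.83, 11.88, 11.87 and 11.85 (log2) in control pools 1 to 4, 11.68, 11.67, 11.77 and 11.59 in diabetic pools, and 11.65, 11.82, 11.54 and 11.91 in NTD embryos. The control pools were close together (SD 0.019), and all diabetic pools lay below them (4.43% of all probes), with a difference of -0.18 ± 0.07 (log2, SE; limma adjusted p = 0.281). The brighter Hspd1 probe (ILMN_2713841) overlapped between groups, with a difference of -0.05 ± 0.07, so that the probes of this gene disagreed on overlap. Hspe1 read 12.50, 12.65, 12.36 and 12.68 in control pools, 12.10, 12.48, 12.31 and 12.67 in diabetic pools, and 12.39, 12.56, 12.33 and 12.58 in NTD embryos. Diabetic pool 1 was lowest, and the groups overlapped, with a difference of -0.16 ± 0.12 between diabetic and control pools (log2, SE; limma adjusted p = 0.663).

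The members did not vary alike in all samples of a group. Relative to the control mean, the median deviation of the 11 probes was -0.19 and -0.22 (log2) in diabetic pools 1 and 2, and -0.05 and -0.02 in diabetic pools 3 and 4. In diabetic pools 1 and 2 each, 9 of the 11 probes were below every control pool, as were 23.8% and 27.8% of all probes there. The counts were 4 and 3 in diabetic pools 3 and 4, where 23.8% and 24.7% of all probes were. Among NTD embryos, embryo 3 had a median of -0.22 with 9 of 11 below every control pool (26.9% of all probes). Embryos 1, 2 and 4 had medians of 0.01 to 0.03. In these, 3, 3 and 1 of 11 were below every control pool (30.0%, 23.9% and 28.3% of all probes). Above every control pool were 0, 0, 2 and 2 of the 11 in diabetic pools 1 to 4. In NTD embryos 1 to 4 these were 3, 4, 2 and 3, and the share of all probes above was not computed. Hspa1a was below every control pool in all 4 diabetic pools and all 4 NTD embryos.

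**Figure D3:**
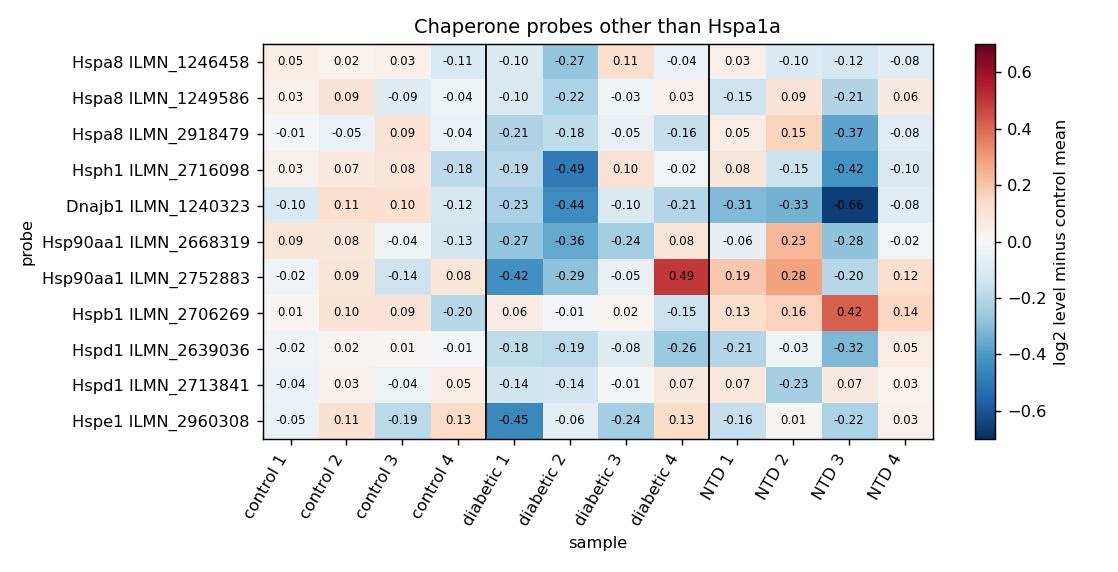
Log2 level minus the control-pool mean for each of the 11 passing probes other than that of Hspa1a (rows) in each of the 12 samples (columns), on a colour scale. Most probes are low in diabetic pools 1 and 2 and in NTD embryo 3, where 9 of 11 lie below every control pool.

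Outside the chaperones, the genes whose pattern was nearest to that of Hspa1a were sought over the 12 arrays, by the mean absolute difference of log2 deviations from the control mean. The 5 nearest of 11822 probes were those of the histone genes H2bc6 (0.224), H4c1 (0.229), H2bc9 (0.246), H2bc15 (0.246) and H2bc7 (0.247), which encode core histones of the nucleosome. In NTD embryo 4 the deviations of these genes were -0.33 to -0.25, and in NTD embryos 1 to 3 they were -2.30 to -1.39. The deviation of Hspa1a was -0.52 in NTD embryo 4 and -1.74, -0.92 and -2.11 in NTD embryos 1 to 3. Among diabetic pools Hspa1a was lowest in pool 4 (-1.74), whereas the 5 histone genes were lowest in pool 1 (-1.95 to -1.58). The likeness of these genes to Hspa1a was chosen from the values and has no test. The nearest chaperone member was Dnajb1, at 0.755 and rank 164, and the others ranked from 932 to 8246.

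**Figure D4:**
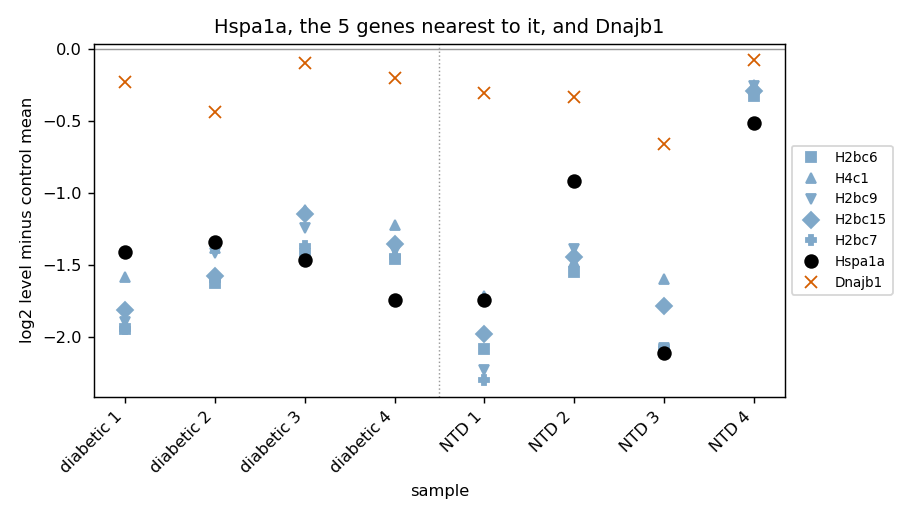
Log2 deviation from the control-pool mean in each sample from diabetic pregnancies for Hspa1a, for the 5 genes with the nearest pattern, and for Dnajb1. Hspa1a and the histone genes are low in all diabetic pools and in NTD embryos 1 to 3 and closer to the control mean in NTD embryo 4.

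The wider chaperone network was read from 9 lists of 88 genes, of which 62 were measured by 90 probes. Between diabetic and control pools 0 of the 90 passed (limma), 1 higher and 6 lower stood at an unadjusted p under 0.05 (6.01% and 6.65% of all probes), and the median difference was -0.02. The lowest adjusted p, 0.0852, was that of Dnajb9, an HSP40 protein of the endoplasmic reticulum induced by unfolded proteins there, at -0.48 ± 0.12 (log2, SE). All 11 probes of the endoplasmic reticulum list, from 8 genes, were below 0, with a median of -0.18, including Dnajc3 at -0.22. So were the 9 probes of the cytosolic chaperonin TRiC (median -0.08), with Cct2 at -0.16 and Cct8 at -0.12. HSP90 cochaperones went both ways, with Stub1, a ubiquitin ligase that acts on chaperone clients, at 0.25, and Chordc1 at -0.17. No probe of Hsf1 was used here, and Hsf2, a related heat shock factor, stood at -0.08 and -0.04, and Hsbp1, which binds HSF1, at 0.12 and -0.03. In the other lists, the genes with the smallest p were Hspa2 (0.13) and Hspa12a (0.02) among HSP70 genes, and Bag5 (-0.13) and Bag1 (0.09) among exchange factors. They were Dnajc6 (-0.19) and Dnajb12 (0.12) among HSP40 genes, Hspb3 (-0.19) and Cryab (-0.16) among small heat shock proteins, and Grpel2 (-0.23) and Grpel1 (-0.14), exchange factors of mitochondrial HSP70. None of these passed. The other probes of these genes stood at -0.42 for Dnajb9, 0.07 for Hspa2, -0.03 for Dnajc6 and -0.11 for Grpel1.

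Between NTD embryos and control pools 0 of the 90 probes passed (limma), with 3 higher and 2 lower at an unadjusted p under 0.05 (5.04% and 4.83% of all probes). The higher ones were Stub1 (0.37, limma adjusted p = 0.168) and the small heat shock proteins Hspb7 (0.35, adjusted p = 0.195) and Hspb2 (0.40, adjusted p = 0.297), of which Hspb7 and Hspb2 are known from heart and skeletal muscle. None of the 7 probes of that list was below 0, while the heart markers given above were higher in the same embryos, and their part was not tested. The lower ones were Dnajc6 (-0.40, with its other probe at -0.30), the partner of Hspa8 in clathrin uncoating, and Bag5 (-0.19). The next by p in their lists were Dnaja2 (0.19), Bag3 (0.07) and the kinase cochaperone Cdc37 (0.20). In the lists with no gene at an unadjusted p under 0.05, the smallest p belonged to Hsbp1 (0.23) and Hsf2 (0.09), Hspa2 (0.14) and Hspa12b (-0.10), Cct2 (-0.16) and Cct5 (0.14), the endoplasmic reticulum chaperones Pdia6 and Calr (both -0.19), and the mitochondrial Dnaja3 (0.20) and Dnajc19 (0.18). Where a gene had several probes, the value is that of the probe with the smallest p. Other probes of these genes stood at -0.07 for Hsbp1, 0.07 for Hsf2, 0.03 for Hspa2 and 0.01 and 0.08 for Dnaja2. They stood at -0.01 and 0.08 for Dnaja3 and at 0.01, -0.03 and -0.005 for Dnajc19. Of the 11 endoplasmic reticulum probes, 10 were below 0 (48.9% of all probes), with a median of -0.13. Between NTD embryos and diabetic pools 0 passed, and at an unadjusted p under 0.05 stood 3 higher, Hspb2, Hspb3 and Hspb7 at 0.30 to 0.31, and 1 lower, Dnajc6 at -0.37 (1.65% and 1.28% of all probes). The other Dnajc6 probe stood at -0.12 there, so that the probes of this gene differed.

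**Figure D5:**
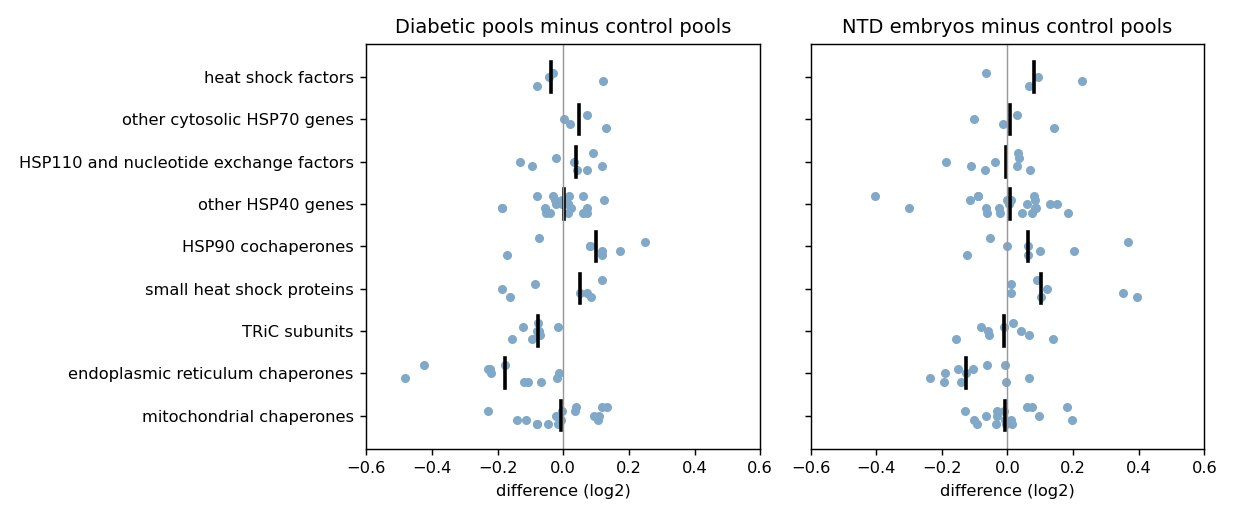
Log2 difference of each measured probe of the 9 chaperone lists between diabetic and control pools and between NTD embryos and control pools, 1 point per probe, grouped by list, with a black bar at the list's median. No point passed the threshold. The endoplasmic reticulum list lies below 0 throughout in diabetic pools (median -0.18), and 10 of its 11 probes do in NTD embryos (median -0.13).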

How the data were processed

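RNA was biotin-labelled from 200 ng and hybridised to Illumina mouse BeadChips, 1 array per sample. Per the file headers, the authors deposited an average signal intensity per probe with its bead standard error and bead number, not normalized, and a detection p-value. GenomeStudio is named in the submitters' processing notes. The authors' deposited value table holds normalized intensities whose scaling is not given in the sources used here, and was used as an alternative, floored at 1.

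Intensities were background-corrected and quantile-normalized with neqc (offset 16, negative controls inferred from the detection p-values) and put on the log2 scale. Groups came from the labels. Each pair of groups was compared over its 8 arrays with limma 3.58.1 (lmFit and eBayes, two-sided) in R 4.3.3, with Benjamini-Hochberg adjustment over all 14677 probes that 2 or more arrays detected (detection p below 0.05) and a threshold of 0.05. The code was tested on simulated data. With 4 arrays a group, their number limits the precision.

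Probe genes came from the platform annotation, with 23267 symbols updated or kept through Entrez identifiers: 23340 probes had 1 symbol, 13 had several or none and 9413 were not listed. Promoter windows came from RefSeq. Named genes were all members, the listed chaperones called or, failing that, the 2 with the smallest p per list, and the 5 genes nearest to Hspa1a. Between NTD embryos and diabetic pools only listed chaperones at an unadjusted p under 0.05 are named, and marker genes are named outside this rule, as checks of the tissue or beside a result. The members and lists were chosen with earlier results of these data known. Alternatives covered background correction, offset, scaling, filters, 1 probe per gene and the value table. Others were all 12 arrays in 1 fit, array weights, variance trend and replicate block. Samples with little Kdm5d were also left out: control pools 3 and 4 in comparisons with control pools, NTD embryos 3 and 4 against diabetic pools. Each sample was left out in turn as well.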

Additional observations from a re-analysis of the deposited data

Results flagged for a closer look

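In 3 of 36 group tests (12 passing probes in 3 groups of 4), 1 sample lay apart from the others of its group by more than Dixon's 95% criterion allows, and chance flags about 1 in 20 groups. For Hspa8 (probe ILMN_1246458), control pool 4 was lowest at 13.87 against 14.00 to 14.03 (log2) in the other control pools, a gap of 0.855 of the group's range. For Hspb1, NTD embryo 3 was highest at 8.93 against 8.64 to 8.68, a gap of 0.868 of the range. For Hspd1 (probe ILMN_2713841), NTD embryo 2 was lowest at 13.27 against 13.53 to 13.57, a gap of 0.850 of the range, while the other Hspd1 probe read 11.82 in that embryo within a group range of 11.54 to 11.91.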

How the results depend on the processing

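No probe of the 7 genes other than Hspa1a was called in any of the 3 comparisons under any of the 20 alternatives. Of 708 single-probe values, 675 kept their direction and side of the threshold and 28 changed sign, 0 of these while called. The Hspa1a difference between diabetic and control pools was moved by no background correction (-0.93), the offset of 50 (-0.92) and the value table (-2.26). Between NTD embryos and control pools the Hspa1a difference ran from -2.77 to -0.80 over the 20 alternatives, and from -1.59 to -1.06 with a sample left out. It is given with no test, because the control pools chose the set. Over all probes the 213 calls between diabetic and control pools became 127 in the value table, 42 with all 12 arrays in 1 fit and 52 without control pools 3 and 4, and ran from 98 to 278 with a sample left out. The 5 calls between NTD embryos and control pools became 1 in the value table, 1 with no filter, 21 with all 12 arrays, 54 with array weights, 8 with a variance trend and 0 without control pools 3 and 4, and ran from 1 to 60 with a sample left out. The cause was not tested, beyond the fewer samples of those that left some out. Without control pools 3 and 4, NTD embryos 3 and 4, which also had little Kdm5d, stayed in their comparison with control pools. Male tissue was then less even between those groups. Sample numbers did not pair the groups (correlations of same-numbered samples -0.237 to 0.268). With the replicate block the calls over all probes were 94, 1 and 0, and none of the 11 chaperone probes other than that of Hspa1a was called. A slide block was not run because the headers give no slides.

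Sign changes under other settings were Hsp90aa1 (ILMN_2752883) in NTD embryos against control pools at -0.000186 with median scaling, and, in NTD embryos against diabetic pools, Hspa1a at -0.52 in the value table, Hspa8 (ILMN_1246458) at -0.0225 and Hsph1 at -0.0501 with array weights, and Hspd1 (ILMN_2713841) at -0.0258 without NTD embryos 3 and 4. With a sample left out, these ranges crossed 0. In diabetic against control pools they were -0.253 to 0.0518 for Hsp90aa1 (ILMN_2752883) and -0.0877 to 0.0228 for Hspb1. In NTD embryos against control pools they were -0.0981 to 0.00256 for Hspa8 (ILMN_1249586), -0.132 to 0.0417 for Hspa8 (ILMN_2918479), -0.119 to 0.0523 for Hsp90aa1 (ILMN_2668319) and -0.0456 to 0.0559 for Hspd1 (ILMN_2713841). In NTD embryos against diabetic pools they were -0.0999 to 0.431 for Hspa1a, -0.0557 to 0.0727 and -0.0166 to 0.0840 for Hspa8 (ILMN_1246458 and ILMN_1249586), -0.111 to 0.0936 for Hsph1, -0.189 to 0.00399 for Dnajb1, -0.00604 to 0.117 for Hspd1 (ILMN_2639036) and -0.0260 to 0.166 for Hspe1.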
